A study of Rattus norvegicus with 12 samples.

Results

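The genes described here are the rat MHC class II presentation genes, 8 in all: the classical class II chains RT1-Ba, RT1-Bb, RT1-Da and RT1-Db1, the peptide-editing chains RT1-DMa and RT1-DMb, the invariant chain Cd74 and the transactivator Ciita. They are 8 of the 13810 genes that the arrays name by a single symbol. Their readings were taken as every probe set whose only gene symbol in the platform annotation is one of these, which gave 14 probe sets of 31142 over both array types, 11 of 15866 on the Affymetrix rat array 230A and 3 of 15276 on 230B. RNA came from mucosa scraped from the jejunum, a segment of the small intestine, of rats in a low Fe group and in a high Fe group. Each array type holds 3 arrays a group, numbered 1 to 3, and the labels do not say whether arrays of the 2 types with the same group and number hold the same RNA. All are labelled with week 12, which is not said to be an age or a time on diet, and the labels of the 230A arrays carry the keywords iron deficiency and anemia. Iron contents, strain and sex are not given in the sources used here, nor whether a group's samples are different animals. Each p-value therefore reflects the spread among these samples alone, and that spread may be technical.

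MHC class II molecules are pairs of an alpha and a beta chain that show peptides from internalised proteins to CD4+ T cells. In the rat, RT1-Ba and RT1-Bb encode the pair corresponding to human HLA-DQ, and RT1-Da and RT1-Db1 the pair corresponding to HLA-DR. The invariant chain fills the groove until it is digested in endosomes, and the DM pair then exchanges its last fragment for other peptides. Dendritic cells, macrophages and B cells hold these molecules, and enterocytes of the small intestine can carry them too. Ciita is the coactivator that switches the set on, through factors bound to the X and Y boxes of class II promoters. The classical chains are among the most variable genes between strains of a species.

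The promoters of 6 of the 8 genes were matched by gene identifier in the RefSeq table of build GRCr8, which holds the 250 bases before and 50 after the start of a gene. They are shown because the members share the regulator Ciita and the boxes it acts through. The 7 letters GNNACNG (X motif, N any base) followed after 15 to 30 bases by TGATTGG (Y motif), on either strand, were found in 5 of these 6 promoters and in 0.457% of all 33469 promoters. TGATTGG alone was in 5 of the 6 and in 7.06% of all, GNNACNG alone in 6 of the 6 and in 88.1%, and ATTGG, the core within the Y motif, in 6 of the 6 and in 37.5%. The letters were chosen with these promoters in view, so the counts describe them and test nothing. The windows below are written 5′ to 3′ on the strand of the gene, with the X and Y letters in capitals (for Cd74 only the Y core, which lies on the opposite strand).
RT1-Ba: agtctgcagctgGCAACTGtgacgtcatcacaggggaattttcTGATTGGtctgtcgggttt
RT1-Bb: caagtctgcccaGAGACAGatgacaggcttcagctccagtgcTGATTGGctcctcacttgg
RT1-Da: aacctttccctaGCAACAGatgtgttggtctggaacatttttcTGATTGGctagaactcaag
RT1-Db1: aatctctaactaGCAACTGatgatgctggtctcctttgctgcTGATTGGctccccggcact
RT1-DMa: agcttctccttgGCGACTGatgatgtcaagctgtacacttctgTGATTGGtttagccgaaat
Cd74: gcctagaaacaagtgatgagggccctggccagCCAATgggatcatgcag

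The windows lie at chr20:4576969-4577030 (plus strand) for RT1-Ba, chr20:4604163-4604223 (minus) for RT1-Bb, chr20:4515321-4515382 (plus) for RT1-Da, chr20:4560226-4560286 (minus) for RT1-Db1, chr20:4712383-4712444 (minus) for RT1-DMa and chr18:56526985-56527033 (plus) for Cd74. Between the X and the Y letters there were 24 bases in RT1-Ba, RT1-Da and RT1-DMa and 23 in RT1-Bb and RT1-Db1. The Y letters began 45 bases before the start site in RT1-Ba, 51 in RT1-Da, 63 in RT1-Bb, 66 in RT1-DMa and 82 in RT1-Db1, and the Y core of Cd74 began 189 bases before it. The 6 class II chain genes lie on chromosome 20, among themselves in the order RT1-Da, RT1-Db1, RT1-Ba, RT1-Bb, RT1-DMb and RT1-DMa. Whether other genes lie between them was not looked at. Ciita is on chromosome 10 and Cd74 on chromosome 18. A match of letters is a description and not a measured binding site.

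**Figure D1:**
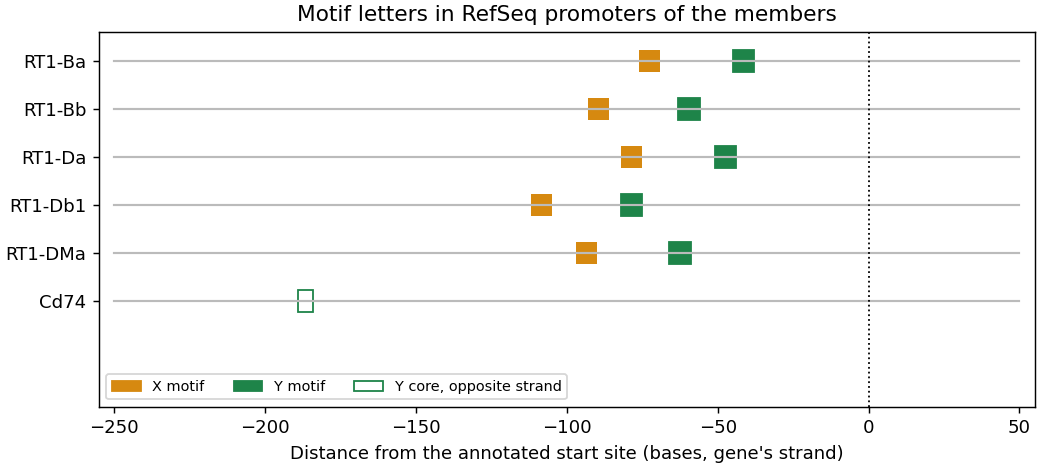
Positions of the X motif (orange) and the Y motif (green) in the RefSeq promoters of 6 members, in bases from the annotated start site at 0 on the strand of each gene; the open box is the Y core on the opposite strand. In 5 promoters the motifs stand 23 or 24 bases apart, with the Y motif 45 to 82 bases before the start site.

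Signals are the linear values of the deposited tables, compared within an array type only. Array medians were 154.5 to 176.2 for 230A and 259.5 to 302.8 for 230B, and precision is limited by having 3 arrays a group. The groups were compared in limma on log2(signal + 16), over the probe sets left after the dimmest 40% were dropped, and adjusted p is the Benjamini-Hochberg value over all of these. The filter kept 9519 probe sets on 230A and 9165 on 230B, with boundaries at signals of 106 and 182.9, and all 14 member probe sets were tested. Log2 differences are low Fe minus high Fe on the log2(signal + 16) scale, and folds on it understate changes of dim genes. Against the tissue label, 15 of 17 listed enterocyte and epithelial markers were measured and all 15 passed the filter, among them Fabp2, a fatty acid carrier of enterocytes, with mean signals of 13962 in low Fe and 14157 in high Fe. In low Fe replicate 3 the 5'/3' signal ratio of the beta-actin control probe sets, a sign of RNA quality, was 0.0539 on 230A and 0.0473 on 230B, against 0.591 to 0.836 and 0.499 to 0.896 on the other arrays. The GAPDH control ratio did not share that gap. In low Fe replicate 3 it was 0.794 on 230A and 0.873 on 230B, against 0.807 to 0.922 and 0.821 to 0.939 on the other arrays.

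No class II probe set passed adjusted p 0.05 in limma, 0 of 11 on 230A and 0 of 3 on 230B. Over all tested probe sets 9 of 9519 passed on 230A, which is 0.0945%, and 0 of 9165 on 230B, which is 0%. At an unadjusted p under 0.05 there were 2 of 11 member probe sets on 230A, where the share over all tested was 6.68%, and 2 of 3 on 230B, where it was 10.2%. The median log2 difference of the 11 probe sets on 230A was 0.05, with 7 above 0 and 4 below, beside a median of -0.01 and 46.9% above 0 over all tested. On 230B 1 of the 3 lay above 0 and 2 below, where 45% of all tested lay above 0. The smallest adjusted p of a member was 0.583 on 230A and 0.400 on 230B. The mucosa is a mixture of cells, so fewer cells of a type and less RNA per cell cannot be told apart for any of these genes.

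**Figure D2:**
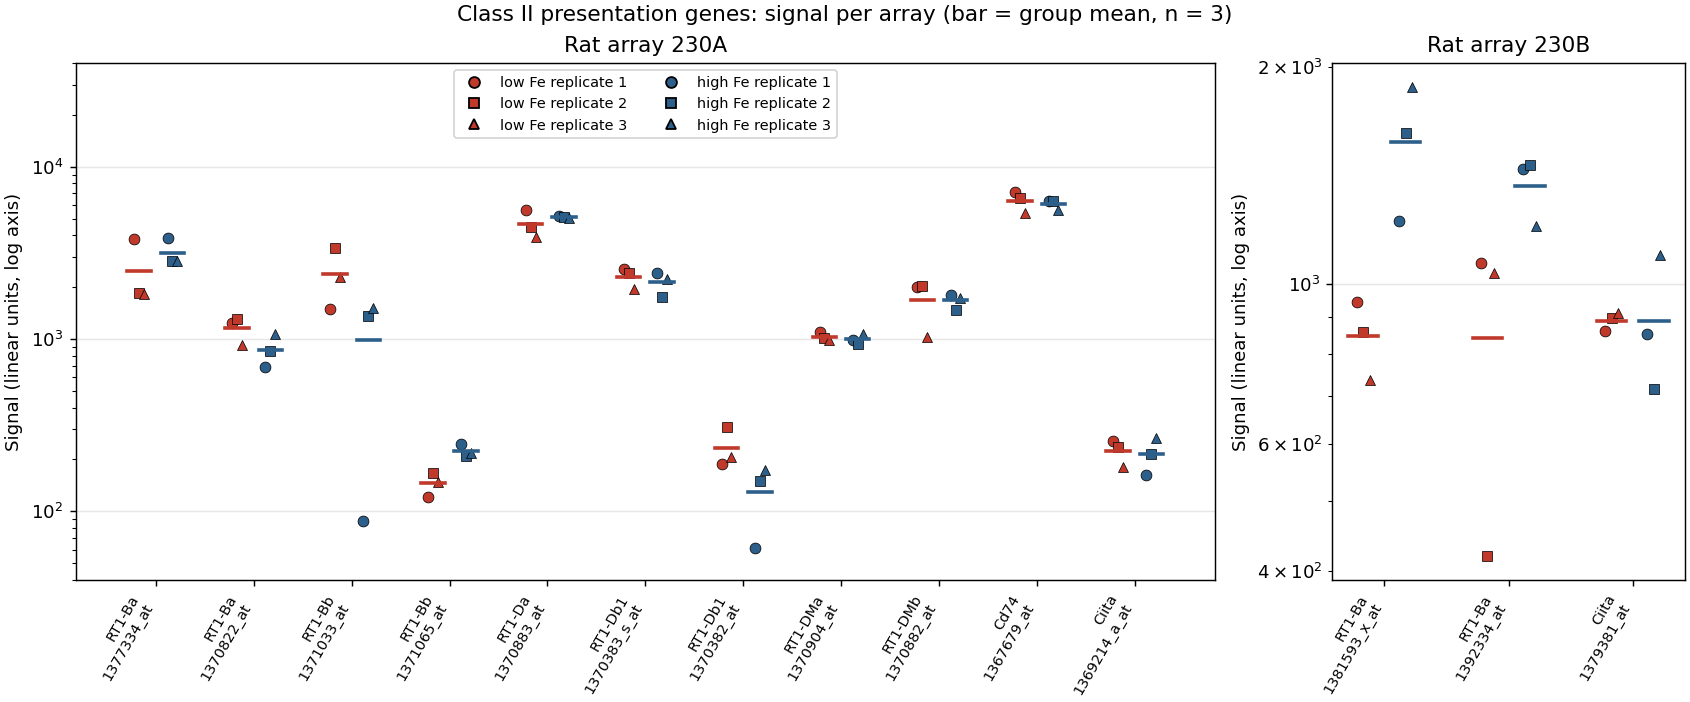
Signal of each class II probe set on every array, on a log axis, with low Fe arrays (red) left of high Fe arrays (blue), the replicate number by symbol and a bar at the group mean (n = 3). Cd74 and RT1-DMa are tight, while the RT1-Bb probe set 1371033_at is at 87.6 in high Fe replicate 1 and at 1353.3 or more on the other arrays.

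Ciita, the transactivator, did not pass the threshold on either array type, with log2 differences near 0. On 230A its signals were 255.7, 235.6 and 180.6 in low Fe replicates 1 to 3, against 162.7, 214.7 and 265.8 in high Fe replicates 1 to 3. The lowest and the highest array were both high Fe, so the range of the low Fe arrays lay inside that of the high Fe arrays. The log2 difference was 0.07 ± 0.21 (SE; 95% interval -0.41 to 0.55, adjusted p = 0.963). It was -0.03 without low Fe replicate 1 and -0.10 without high Fe replicate 1. On 230B the signals were 860.8, 898.2 and 912.4 in low Fe and 853.6, 716.1 and 1098.4 in high Fe, and here too the low Fe arrays lay within the high Fe range. The log2 difference there was 0.02 ± 0.19 (95% interval -0.42 to 0.47, adjusted p = 0.975), and -0.12 without high Fe replicate 2. The 2 Ciita probe sets thus both gave differences near 0, and both were highest in high Fe replicate 3. They ordered the other arrays differently: the lowest was high Fe replicate 1 on 230A and high Fe replicate 2 on 230B.

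Cd74, the invariant chain, had the highest mean signal of the member probe sets on 230A, above 98.4% of all 230A probe sets. Its signals were 7115.8, 6575.5 and 5381.7 in low Fe, against 6371.4, 6310.9 and 5621.5 in high Fe. The group means were 6358 ± 887 in low Fe and 6101 ± 417 in high Fe (SD, n = 3 each). The low Fe arrays spanned the high Fe arrays, and the log2 difference was 0.05 ± 0.13 (95% interval -0.25 to 0.36, adjusted p = 0.951). As a fold of low Fe over high Fe the interval ran from 0.840 to 1.28. The sign turned without low Fe replicate 1 (-0.03) or high Fe replicate 3 (-0.01).

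The DM pair, which edits the peptide held by class II molecules, did not pass the threshold either. RT1-DMa, the alpha chain, had signals of 1093.0, 1019.8 and 985.1 in low Fe, against 991.7, 932.1 and 1074.8 in high Fe. Its highest array was 1.17 times its lowest, a spread wider than that of only 3.50% of tested 230A probe sets. Its log2 difference was 0.05 ± 0.12 (95% interval -0.23 to 0.33, adjusted p = 0.951; -0.0010 without high Fe replicate 2). RT1-DMb, the beta chain, had signals of 2017.4, 2026.4 and 1022.1 in low Fe, against 1814.3, 1473.0 and 1736.5 in high Fe. Low Fe replicate 3 stood lowest and the other low Fe arrays stood above all 3 high Fe arrays. The log2 difference was -0.05 ± 0.25 (95% interval -0.62 to 0.52, adjusted p = 0.978), and 0.28 without low Fe replicate 3 (adjusted p = 0.998). That array is the one with the low beta-actin ratio given above, whose part in the RT1-DMb value was not tested.

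The HLA-DR-like pair had no probe set past the threshold, and its largest difference was in a second, dim probe set of RT1-Db1. RT1-Da, the alpha chain, had signals of 5603.7, 4484.8 and 3905.9 in low Fe, against 5165.1, 5121.5 and 5032.4 in high Fe. The low Fe arrays, at 4665 ± 863, spanned the high Fe arrays, at 5106 ± 67.6 (mean ± SD, n = 3 each). The log2 difference of RT1-Da was -0.15 ± 0.14 (95% interval -0.47 to 0.18, adjusted p = 0.860). It was -0.29 without low Fe replicate 1, -0.03 without low Fe replicate 3 and -0.08 with a block for the GAPDH 5'/3' control ratio. RT1-Db1, the beta chain, is read by 2 probe sets designed on the same transcript sequence. The bright one, 1370383_s_at, gave 2543.9, 2415.0 and 1962.3 in low Fe, against 2403.3, 1761.6 and 2227.4 in high Fe. Its groups overlapped, with a log2 difference of 0.12 ± 0.16 (95% interval -0.24 to 0.48, adjusted p = 0.894; -0.01 without high Fe replicate 2). The ending _s_at marks probes shared between several transcripts, so related sequences can add to that signal.

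The dim RT1-Db1 probe set, 1370382_at, gave 188.7, 307.5 and 205.6 in low Fe, against 61.3, 150.5 and 174.3 in high Fe. All low Fe arrays lay above all high Fe arrays, high Fe replicate 1 was lowest and low Fe replicate 2 highest. Low Fe minus high Fe came to 0.86 ± 0.34 in log2 (95% interval 0.09 to 1.63, adjusted p = 0.720), and 0.46 without high Fe replicate 1 (adjusted p = 0.572). The ratio of the bright to the dim signal was 13.5, 7.85 and 9.54 in low Fe and 39.2, 11.7 and 12.8 in high Fe, so it was highest by far in high Fe replicate 1. The difference of the log2 ratio between the groups was -0.74, with p = 0.3 in an exact two-sided permutation test over all 20 group assignments, where 0.1 is the smallest p the design allows.

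RT1-Bb, the beta chain of the HLA-DQ-like pair, held the widest spread of the set. Its bright probe set, 1371033_at, gave 1491.1, 3375.8 and 2283.9 in low Fe, against 87.6, 1353.3 and 1507.7 in high Fe. High Fe replicate 1 lay 15.4-fold under the next lowest array, and among the 5 other arrays low Fe replicate 1 lay between both remaining high Fe arrays. The highest array was 38.5 times the lowest, a spread wider than that of 99.9% of tested 230A probe sets. Of the 9519 tested, 5 had 1 array more than 10-fold under the next lowest. That array was high Fe replicate 1 for this probe set and low Fe replicate 3 for the other 4. In log2, low Fe minus high Fe was 1.92 ± 0.89 (95% interval -0.10 to 3.94, adjusted p = 0.750), and 0.65 without high Fe replicate 1 (adjusted p = 0.520).

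The dim RT1-Bb probe set, 1371065_at, lay on the other side of 0. It gave 121.4, 166.0 and 148.4 in low Fe, against 245.0, 210.4 and 217.6 in high Fe, and all low Fe arrays lay below all high Fe arrays. High Fe replicate 1, the lowest array of the bright probe set, was the highest of this one. The log2 difference was -0.58 ± 0.17 (95% interval -0.97 to -0.19, adjusted p = 0.583), between -0.67 and -0.47 without any 1 array. The ratio of the bright to the dim signal was 12.3, 20.3 and 15.4 in low Fe, against 0.358, 6.43 and 6.93 in high Fe, with no overlap. The difference of the log2 ratio was 2.50 (exact two-sided permutation test, p = 0.1, the smallest possible with 3 samples a group). For RT1-Bb the direction of the difference therefore depended on which probe set was read.

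RT1-Ba, the alpha chain of that pair, was read by 4 probe sets, 2 on each array type, and they also differed in sign. The brightest on 230A, 1377334_at, gave 3796.7, 1861.9 and 1827.2 in low Fe, against 3856.7, 2820.7 and 2834.1 in high Fe. The 2 arrays numbered 1 were close to each other and high, the other high Fe arrays were intermediate and the other low Fe arrays low. Its log2 difference was -0.42 ± 0.27 (95% interval -1.04 to 0.20, adjusted p = 0.798), and -0.76 without low Fe replicate 1 (adjusted p = 0.151). It was smaller without low Fe replicate 3 (-0.24), low Fe replicate 2 (-0.25) or high Fe replicate 1 (-0.27). The other 230A probe set, 1370822_at, gave 1247.7, 1313.7 and 923.4 in low Fe, against 689.5, 847.6 and 1070.6 in high Fe. Here high Fe replicate 1 was lowest, and low Fe replicate 3 lay below high Fe replicate 3. The log2 difference was 0.42 ± 0.20 (95% interval -0.03 to 0.86, adjusted p = 0.750), and 0.27 without high Fe replicate 1.

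On 230B both RT1-Ba probe sets, designed on the same sequence, were lower in every low Fe array than in any high Fe array, without passing the adjusted threshold. The probe set 1381593_x_at gave 945.8, 859.5 and 736.5 in low Fe, against 1225.0, 1618.5 and 1879.9 in high Fe, with a log2 difference of -0.87 ± 0.20 (95% interval -1.33 to -0.40, adjusted p = 0.400). Its ending marks probes that may bind related sequences. The probe set 1392334_at gave 1068.4, 419.2 and 1037.2 in low Fe, against 1445.0, 1461.8 and 1204.0 in high Fe, with a log2 difference of -0.80 ± 0.34 (95% interval -1.57 to -0.03, adjusted p = 0.478), and -0.37 without low Fe replicate 2 (adjusted p = 0.715). On 230B the groups did not overlap for 17.4% of all tested probe sets, and for 10.3% with low Fe the lower. The 2 readings share their design sequence and are not independent.

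The RT1-Ba probe sets were also set against each other within arrays. On 230A the ratio of 1377334_at to 1370822_at was 3.04, 1.42 and 1.98 in low Fe, against 5.59, 3.33 and 2.65 in high Fe. It was highest in high Fe replicate 1, and the groups overlapped only through low Fe replicate 1 (difference of the log2 ratio -0.83, exact two-sided permutation test, p = 0.2). On 230B the ratio of 1381593_x_at to 1392334_at was 0.885, 2.05 and 0.710 in low Fe, against 0.848, 1.11 and 1.56 in high Fe, with a difference of -0.07 (exact permutation p = 1). So 3 of the 4 RT1-Ba probe sets lay lower in low Fe and 1 higher, and none passed. These 4 ratios were the only ones that 2 probe sets of a gene on 1 array type allowed, and at 3 samples a group none of them can reach p 0.05.

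**Figure D3:**
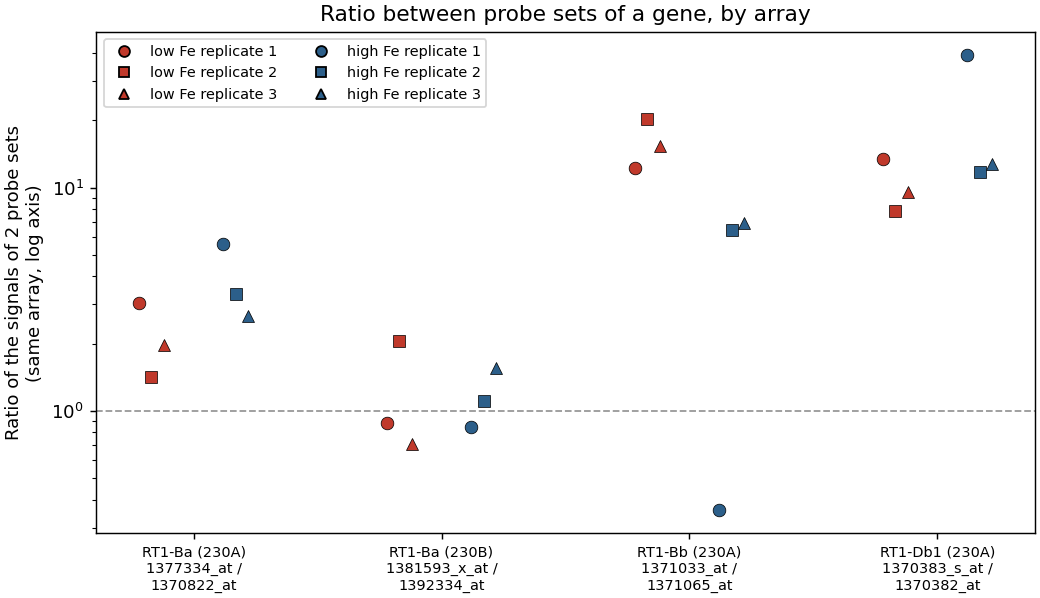
Ratio of the signals of 2 probe sets of the same gene on the same array, on a log axis, low Fe (red) left of high Fe (blue), the replicate number by symbol. The ratio of the RT1-Bb probe sets is 0.358 in high Fe replicate 1 and 6.43 to 20.3 elsewhere, and that of the RT1-Db1 probe sets is highest, at 39.2, on the same array.

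**Figure D4:**
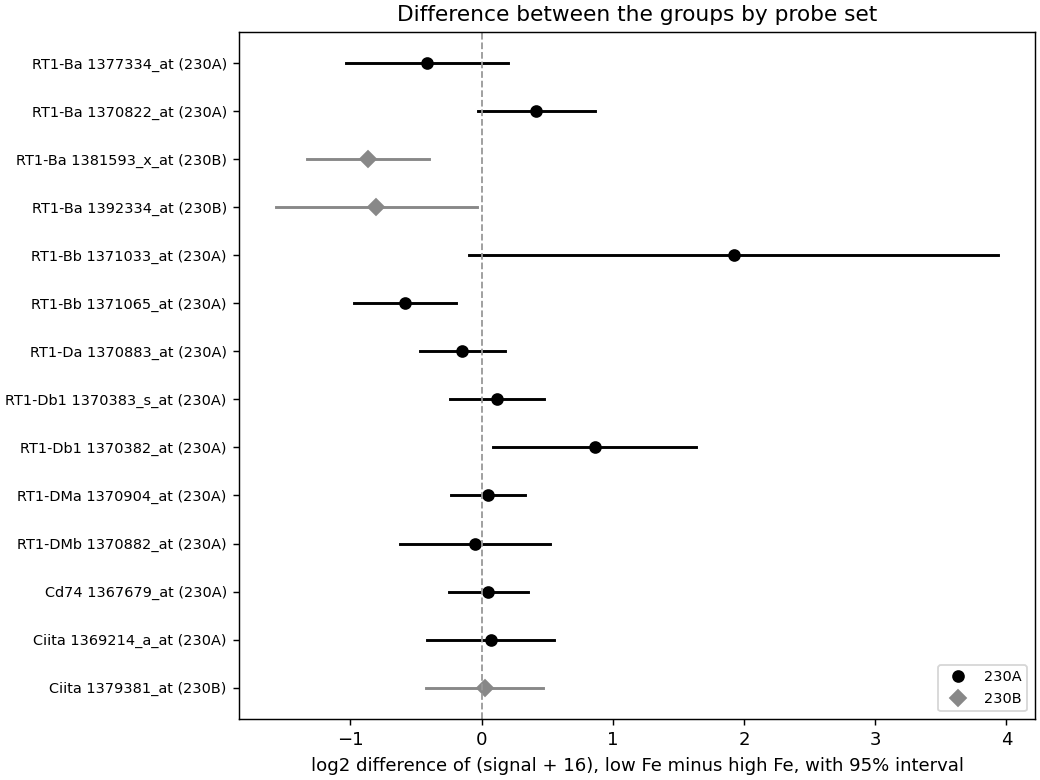
Log2 difference of (signal + 16), low Fe minus high Fe, for each member probe set, with its 95% interval from limma (black circles 230A, grey diamonds 230B). Cd74, RT1-DMa and Ciita lie near 0, the 2 RT1-Bb probe sets lie on opposite sides of 0, and no probe set passed the adjusted threshold although 4 of the unadjusted intervals do not hold 0.

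By gene, the probe sets agreed in sign for Ciita (2 of 2, both close to 0) and RT1-Db1 (2 of 2), and disagreed for RT1-Ba (1 of 4 above 0) and RT1-Bb (1 of 2 above 0). RT1-Da, RT1-DMa, RT1-DMb and Cd74 have 1 probe set each. Of the 11 probe sets on 230A, 2 had no overlap between the groups, 1 in each direction (the dim probe sets of RT1-Db1 and RT1-Bb), where 11.8% of all tested 230A probe sets had none, 5.61% with low Fe the higher and 6.18% with low Fe the lower. By the ratio of the highest to the lowest array on 230A, the bright RT1-Bb (38.5), the dim RT1-Db1 (5.02) and the RT1-Ba probe set 1377334_at (2.11) had the widest spreads, and RT1-DMa (1.17) and Cd74 (1.32) the narrowest. The sequences of the array probes were not used here, and the match of each probe set to the class II alleles of these rats was not tested.

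The 230A arrays were also set out by their GAPDH 5'/3' control ratio, cut at its widest gap, as a description only. The ratio ran from 0.794 to 0.811 in low Fe replicates 2 and 3 and high Fe replicate 1, and from 0.876 to 0.922 in low Fe replicate 1 and high Fe replicates 2 and 3. The same cut on 230B put low Fe replicate 3, at 0.873, in the higher set, so the sets differed between the array types. With 2 low Fe arrays and 1 high Fe array in the lower set the log2 difference of the bright RT1-Bb probe set was 4.75, and in the higher set, with 1 low Fe array and 2 high Fe arrays, it was 0.06. For the dim RT1-Db1 probe set these were 1.79 and 0.20, for RT1-Ba 1377334_at -1.06 and 0.42, and for RT1-Ba 1370822_at 0.66 and 0.38. The dim RT1-Bb probe set gave -0.59 and -0.74. Cd74 gave -0.10 and 0.26, and RT1-Da -0.30 and 0.14. No test can be made within a set, and the lower set holds high Fe replicate 1 as its only high Fe array, so that ratio and that sample cannot be told apart there.

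Markers of the cells that a mucosal scrape can hold were followed beside the members. Some of these cells carry class II molecules, while smooth muscle and T cell markers were included to describe the mixture. Values are sums of the linear signals of all measured markers on 230A unless 230B is named. The sum of 11 of 15 macrophage markers was 4968 to 5805 in low Fe and 3408 to 5201 in high Fe, lowest in high Fe replicate 1. Its largest part was Lyz2, a lysozyme, at 1982.4, 2702.6 and 2382.1 in low Fe, against 1120.6, 2066.4 and 2254.5 in high Fe. On 230B 3 more macrophage markers summed to 954 to 992 in low Fe and 939 to 1126 in high Fe. Of the 10 macrophage markers tested over both array types, 7 lay above 0 and 3 below, with a median of 0.11, and none passed the threshold. The sum of all 10 pan-leukocyte markers was 4396 to 4563 in low Fe and 3669 to 4819 in high Fe, again lowest in high Fe replicate 1. The sum of 6 of 12 dendritic cell markers was 2620 to 3327 in low Fe and 1966 to 2322 in high Fe, without overlap, and most of it came from Irf8, a transcription factor of dendritic cells and B cells (log2 difference 0.51 ± 0.17, adjusted p = 0.653). On 230B, 7 of 15 B cell and plasma cell markers summed to 8991 to 13815 in low Fe and 9192 to 10328 in high Fe. The highest of these sums, in low Fe replicate 2, held 7600.3 from Jchain, the joining chain of secreted antibodies. Cd22, a receptor of B cells, lay below high Fe on all low Fe arrays, with a log2 difference of -0.56 ± 0.17 (adjusted p = 0.456). Of the 6 B cell and plasma cell markers tested over both array types, 3 lay above 0 and 3 below, with a median of 0.0009. Smooth muscle markers, 8 of 8, summed to 4523 to 5928 in low Fe and 3505 to 4211 in high Fe, without overlap. Most of that sum came from Mylk, a myosin kinase, at 3390.7, 4013.3 and 3730.0 in low Fe, against 2899.2, 2436.0 and 2925.9 in high Fe. Of the 5 tested smooth muscle markers all lay above 0, and 3 had no overlap between the groups. Over all tested 230A probe sets 46.9% lay above 0, and 11.8% had no overlap, 5.61% with low Fe the higher. None of the 5 passed the threshold in limma (smallest adjusted p = 0.522). The 8 of 10 T cell markers summed to 2081 to 2730 in low Fe and 2274 to 2365 in high Fe. The 13 of 17 epithelial markers on 230A summed to 128232 to 150830 in low Fe and 116567 to 180343 in high Fe. No measured marker was at 0 on any array. Cd79b, Cd68, Cd14 and Itgam lay under the filter boundary. The part of these cells in the class II values was not tested.

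Other genes of the pathway came from 6 lists with 67 symbols, of which 56 were measured and 45 tested over both array types. A gene with any 230A probe set was read on 230A alone, so one counted as not tested may have 230B probe sets that were not looked at. In limma 0 of the 45 passed in either direction, 2 had an unadjusted p under 0.05, and 20 lay above 0 and 25 below. Over all tested probe sets 6.68% on 230A and 10.2% on 230B had an unadjusted p under 0.05, and of 7051 tested genes on 230A 50.4% lay below 0. Of the 5 symbols listed as other class II chains, among them RT1-DOa and RT1-DOb, 0 were measured, as none was the only gene symbol of a probe set.

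The factors that bind class II promoters or work with Ciita gave 0 of 11 tested past the threshold, with log2 differences from -0.31 to 0.24 and a median of -0.06. Rfxap, a subunit of the RFX complex on the X box, had a log2 difference of -0.27 ± 0.18 on 230B (adjusted p = 0.593), Ep300, a histone acetyltransferase, -0.23 ± 0.17 (adjusted p = 0.823), and Creb1, which binds next to RFX, -0.31 ± 0.33 (adjusted p = 0.860). Without 1 array Creb1 ran from -0.59 (low Fe replicate 1) to -0.02 (low Fe replicate 3) and was -0.54 without high Fe replicate 1 and -0.06 without high Fe replicate 3, as with the GAPDH block. Ep300 ran from -0.38 (low Fe replicate 3) to -0.09 (low Fe replicate 2) and was -0.13 without high Fe replicate 2. The interferon gamma pathway, the main inducer of Ciita outside professional antigen-presenting cells, had 0 of 6 tested past it. Jak1, a kinase of the receptor, gave 0.36 ± 0.16 on 230B (adjusted p = 0.499). Irf1, a transcription factor downstream of it, gave -0.30 ± 0.14 (adjusted p = 0.747), with signals of 2723.9, 2243.7 and 2682.5 in low Fe, against 3579.7, 3004.9 and 2864.4 in high Fe. Ifngr2, a receptor chain, gave -0.22 ± 0.11 (adjusted p = 0.764). Ifng itself lay under the filter boundary, with mean signals of 22.7 in low Fe and 19.5 in high Fe.

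Lysosomal processing genes, which digest antigens and the invariant chain, had 0 of 13 tested past the threshold and a median log2 difference of -0.07. Ctsd, the aspartic protease cathepsin D, had signals of 1358.9, 1529.8 and 1351.7 in low Fe, against 1079.3, 915.0 and 1082.3 in high Fe, without overlap. Its log2 difference was 0.46 ± 0.13 (adjusted p = 0.543). Ifi30, a thiol reductase of antigen processing, gave -0.25 ± 0.12 (adjusted p = 0.757). Sppl2a, an intramembrane protease that cuts the membrane-bound fragment of Cd74, gave -1.23 ± 0.60 (adjusted p = 0.757). Its signals were 580.6, 137.9 and 104.0 in low Fe against 269.3, 514.8 and 922.8 in high Fe, groups that overlapped. The difference was -1.94 without low Fe replicate 1 (adjusted p = 0.151), -0.78 without low Fe replicate 3, -0.81 without high Fe replicate 3 and -0.66 with the GAPDH block.

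Genes of class II recognition and turnover had 0 of 3 tested past the threshold, and 5 of 8 measured lay under the filter boundary, among them the costimulators Cd80 and Cd86. Cd4, the coreceptor of T cells for class II, gave -0.37 ± 0.18 (adjusted p = 0.757). Marchf8, a ubiquitin ligase of the family that removes class II from the surface, gave 0.10 ± 0.14 (adjusted p = 0.896), and Cd83, a marker of mature dendritic cells, -0.18 ± 0.26 (adjusted p = 0.904). Class I presentation genes, which show peptides of the cytosol to CD8+ T cells, had 0 of 12 tested past the threshold and a median log2 difference of 0.04. Psmb9, an immunoproteasome subunit, gave 0.43 ± 0.15 (adjusted p = 0.680), with low Fe above high Fe on all arrays. Tap1, a peptide transporter subunit, gave 0.22 ± 0.15 (adjusted p = 0.800), and B2m, the light chain of class I molecules, -0.17 ± 0.18 (adjusted p = 0.863).

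The genes whose pattern over the 6 230A arrays was most like the mean of the 11 member probe sets were found by the root mean square difference of centred log2 values, over 7043 genes. That mean pattern was 0.19, 0.24 and -0.12 in low Fe and -0.39, -0.03 and 0.11 in high Fe, with high Fe replicate 1 lowest. The bright RT1-Bb probe set, at -3.50 there, weighs on it most. On that array the other 230A member probe sets ran from -1.23 (dim RT1-Db1) to 0.50 (RT1-Ba 1377334_at). A gene near this mean is therefore not shown to be near the class II members as a set. The nearest were Crip2, a LIM domain protein (0.037), LOC100911253 (0.067), Rbbp6, a ubiquitin ligase that binds the retinoblastoma protein (0.069), C1qb, a complement chain made by macrophages (0.071), and Ggta1, a galactosyltransferase (0.081). The size of the members' own pattern by the same measure was 0.215, and 1054 genes lay closer than that, and with 6 arrays this is a description of likeness only.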

How the data were processed

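Affymetrix rat 230A and 230B arrays of 3 low Fe and 3 high Fe samples were analysed, grouped by the sample titles. The tables deposited by the authors hold 1 linear intensity per probe set and array; the sources used here do not give the software. Judged by the values, arrays were scaled to one mean (with 2% trimmed at each end about 500.1 on 230A and 500.2 on 230B), which hides any shift common to most genes. Of the probe sets without the 57 controls of each type, 12783 on 230A and 7564 on 230B had 1 gene symbol, and 12748 and 7524 of these matched RefSeq genes of assembly GRCr8, used for current names.

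Values were taken as log2(signal + 16), probe sets in the lowest 40% by mean log2 value were left out, and limma 3.58.1 under R 4.3.3 was fitted to each type (lmFit, then eBayes with its trend option), with no block. The steps were tested on simulated data. Arrays with the same number deviated from their group means with correlations of -0.36 to -0.15 (230A) and -0.27 to -0.10 (230B), so the numbers were not taken as pairs. In lists a gene was read on 230A if it had any probe set there, tested or not, and otherwise on 230B. Its brightest tested probe set stands for it, or its brightest where none was tested. The rule for names was every member probe set, up to 3 genes of each pathway list by smallest p, and the 5 nearest genes by pattern; Ifng, Cd80, Cd86 and the cell markers named besides were chosen after their values were seen. Members and lists were chosen with earlier results of these data known. The alternatives were other pseudocounts, filters, scalings, variance settings and blocks, each array left out in turn, a threshold of 0.1 and gene means.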

Additional observations from a re-analysis of the deposited data

How the results depend on the processing

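No class II probe set passed under any alternative except the scaling to the hybridization controls, where 1 on 230A did, and none on 230B. That was the bright RT1-Bb probe set, with a log2 difference of 2.30 (adjusted p = 2.38e-05). This scaling moved the median of all probe sets on 230A to 0.342. It also gave an infinite prior degree of freedom there, which replaces the spread of each probe set by the common trend. With it 33 probe sets passed the threshold on 230A and 4 on 230B. The mean log2 signal of the hybridization controls on 230A was 10.26 in high Fe replicate 2, against 9.23 to 9.52 on the other arrays. On 230B it was 11.98 in high Fe replicate 2, against 11.15 to 11.40. The 9 passing probe sets of 230A became 4 with the replicate block, 14 with a block for the GAPDH ratio and 5 to 21 without 1 array (21 without low Fe replicate 1, 5 without low Fe replicate 2). The replicate block changed no call of a class II probe set.

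The median class II difference on 230A was 0.42 after scaling to the hybridization controls and ran from -0.026 to 0.21 without 1 array. Of the 14 member probe sets 7 kept their sign in all alternatives run, those of RT1-Ba and RT1-Bb and the dim one of RT1-Db1. Signs turned after scaling to the hybridization controls for RT1-Da (0.23), RT1-DMb (0.32), Ep300 (0.14), Creb1 (0.029), Irf1 (0.071), Ifngr2 (0.15), Ifi30 (0.12), Cd83 (0.17) and B2m (0.21), all under the shift of the median. RT1-DMb also turned with a common median (0.019) and with the GAPDH block (0.0010). Without 1 array, RT1-DMb ran from -0.21 to 0.28, the bright RT1-Db1 probe set from -0.013 to 0.23, RT1-DMa from -0.0010 to 0.10, Cd74 from -0.034 to 0.17, Ciita from -0.10 to 0.23 (230A) and from -0.12 to 0.18 (230B), Marchf8 from -0.0017 to 0.18, Cd83 from -0.39 to 0.076 and B2m from -0.32 to 0.027. The causes were not tested. When the lowest 60% are left out, 3 member probe sets, the dim ones of RT1-Db1 and RT1-Bb and the 230A one of Ciita, are no longer tested.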
